A study of Homo sapiens with 6 samples.

Results

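Nuclear hormone receptors are transcription factors that, for the most part, are switched by small fat-soluble ligands: steroid and thyroid hormones, retinoids, vitamin D, fatty acids, oxysterols and bile acids. They bind short DNA half-sites as single molecules, as pairs of the same receptor or as pairs with a retinoid X receptor, and recruit coactivators or corepressors. Several of their ligands, among them oxysterols and bile acids, are made from cholesterol, the product of the pathway that statins block. Here 46 receptor genes were followed, chosen by gene symbol, out of 81496 gene symbols with a probe set in the deposited table. Each gene was represented by its probe set with the highest mean over the 5 arrays compared. Of the 46 genes, 42 had 1 probe set and 4 (NR2C2, RXRA, NR1H2 and RORA) had more.

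The arrays came from human breast epithelial cells of the MCF10A series. MCF10.AT1 is a preneoplastic line that is sensitive to fluvastatin, and MCF10.AT1-R is the fluvastatin-resistant line derived from it by culture in rising doses (1 µM, then 5 µM and up to 20 µM). The resistant cells are thus a single selected line. The labels name MCF10.AT1 medium for both lines, with fluvastatin added for MCF10.AT1-R. The sources used here do not say whether fluvastatin was still present at harvest. Line and fluvastatin exposure therefore cannot be told apart in this comparison. The study's methods give the medium of the MCF10A series as holding horse serum, epidermal growth factor, insulin and hydrocortisone. Hydrocortisone is an agonist of the glucocorticoid receptor. Clariom D arrays, whose short probes cover messenger and noncoding RNA, were made from 3 replicates of each line. MCF10.AT1-R (B02, B03 and B04) was compared with MCF10.AT1 (A01 and A02). The third MCF10.AT1 array, A03, was removed by the study as an outlier and is given apart. All values are RMA values on the log2 scale, and a change is the mean of MCF10.AT1-R minus the mean of MCF10.AT1. A step of 1 on this scale is a doubling. Probe sets differ in how well they bind their transcripts, so levels were compared between arrays and not between genes.

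The 5 arrays correlated with each other at a Pearson r of at least 0.967 over all transcript probe sets, and A03 with any of them at no more than 0.795. A value was read as above background when it exceeded the 95th percentile of the 612 negative control probe sets of its own array, which lay between 2.88 and 3.14 on the 5 arrays and at 3.15 on A03. Of 51457 probe sets tested with limma, 620 passed a false discovery rate (FDR) of 5%, which is 1.20% of those tested. Higher in MCF10.AT1-R were 0.758% and lower were 0.447%. The smallest change among them was 1.07, and on simulated data this limma fit made more false calls than the nominal 5%. The simulation took each probe set's estimated SD as its true SD, so the share of false calls in the real data is not known. The labelled cell type was checked against marker genes. All 7 genes of the list for basal breast epithelium lay above the negative controls on the 5 arrays. The list also held EPCAM and CDH1, which are not specific to basal cells. Of the 7, 5 rose past FDR 5% in MCF10.AT1-R, namely KRT5, KRT14, KRT17, TP63 and CDH1 (median change over the list 1.71, sum of the list 47.2 to 48.1 on the MCF10.AT1 arrays and 60.3 to 61.0 on the MCF10.AT1-R arrays). Of 6 luminal markers 2 rose, KRT8 and KRT19 (sum 35.5 to 35.8 and 40.1 to 40.3). Of 4 markers of cornifying keratinocytes 2 rose, KRT1 and IVL (sum 11.3 to 11.9 and 15.7 to 17.0), and FLG was within the negative controls. Among 7 fibroblast markers DCN fell and the others did not pass (sum 30.2 to 30.7 and 27.6 to 28.7), with LUM and PDGFRB within the controls. Among 4 endothelial markers PECAM1 fell (sum 13.4 to 13.8 and 11.6 to 12.7), with KDR within the controls, and none of the 4 leukocyte or 3 adipocyte markers passed. Any part of these shifts in the receptor values was not tested.

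Of the 46 receptors, 2 fell past FDR 5% in MCF10.AT1-R and none rose. NR2F1, an orphan receptor of the COUP-TF class that mostly represses transcription, fell 2.89-fold, and THRA, the thyroid hormone receptor alpha, fell 2.27-fold. NR2F2, the close relative of NR2F1, and VDR, the vitamin D receptor, were higher on every MCF10.AT1-R array by less than 1.5-fold and did not pass. The glucocorticoid receptor NR3C1 differed by less than 0.10 on the log2 scale. The oestrogen receptors and the progesterone receptor lay at or within the negative controls on most arrays. Of the 46 receptors 28 were among the probe sets tested, and 18 had been removed by the filter, 7 for a low mean and 11 for a low SD. At an unadjusted p under 0.05, limma named the same 2 of the 28. Their share of calls stands beside 1.20% over all probe sets tested, and the receptors were chosen with earlier results of these data known.

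**Figure D1:**
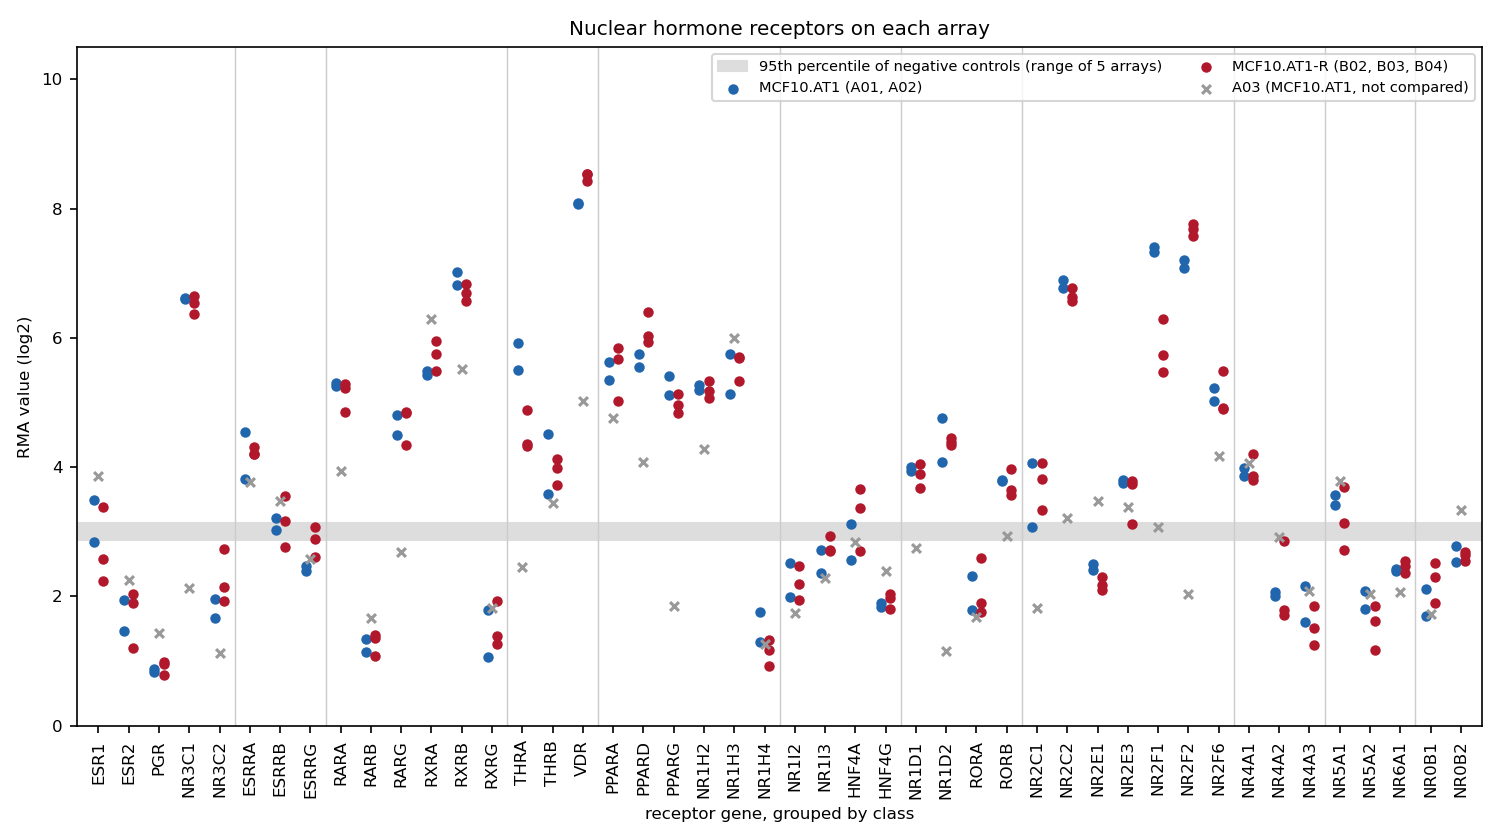
RMA value (log2, vertical axis) of each of the 46 receptor genes (horizontal axis, grouped by class with grey lines between classes) on each array. Blue points are MCF10.AT1 (A01 and A02), red points MCF10.AT1-R (B02, B03 and B04), grey crosses A03, and the grey band the background limit over the 5 arrays; NR2F1 and THRA show red points well below the blue ones, and 24 genes lie above their array's limit on all 5 arrays.

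The sequences upstream of the start sites of the 2 genes that fell are shown, since these are the genes for which the lines differed past the threshold. They are the 250 bases before the first start that RefSeq lists for each gene, in GRCh38.p14, 5′ to 3′ on the strand of the gene. NR2F1 has 2 listed starts and THRA has 1. Capitals mark matches, on either strand and with no overlap between them, to AGGTCA, the half-site that most receptors bind, or to AGTTCA, a related half-site.
NR2F1, chr5:93582972-93583221, plus strand: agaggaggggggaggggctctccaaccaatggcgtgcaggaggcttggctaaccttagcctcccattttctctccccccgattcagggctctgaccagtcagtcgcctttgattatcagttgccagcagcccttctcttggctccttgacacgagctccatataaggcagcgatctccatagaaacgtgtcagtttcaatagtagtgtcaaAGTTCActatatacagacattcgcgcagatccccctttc
THRA, chr17:40062715-40062964, plus strand: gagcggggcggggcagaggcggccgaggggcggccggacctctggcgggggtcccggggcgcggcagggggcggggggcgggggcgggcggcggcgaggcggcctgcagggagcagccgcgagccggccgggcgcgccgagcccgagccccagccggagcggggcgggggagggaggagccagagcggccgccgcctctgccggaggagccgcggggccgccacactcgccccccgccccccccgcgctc
The NR2F1 window holds 1 match to AGTTCA and the THRA window holds none to either motif. The windows differ in base composition, with 52.4% G or C for NR2F1 and 87.2% for THRA, against a median of 58% and a range from 34% (5th percentile) to 78% (95th percentile) over 27305 genes. A window was matched for 41 of the 46 receptors. AGGTCA was found in 7 of them (17.1%), against 12.1% of all windows, and AGTTCA in 6 (14.6%), against 8.91% of all windows. The 6 were RARB, NR1I2, NR3C2, NR3C1, NR2F1 and NR2F2, so the motif stands in the window of NR2F1, which fell, and of NR3C1 and NR2F2, which did not. A match of these letters is a description and not a binding site.

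The orphan receptors of the COUP-TF, testicular, tailless and photoreceptor classes held the receptor with the widest difference between the lines. NR2F1 (probe set TC0500008086.hg.1) read 7.32 and 7.41 on the MCF10.AT1 arrays and 6.30, 5.48 and 5.73 on the MCF10.AT1-R arrays. Every MCF10.AT1-R array lay below both MCF10.AT1 arrays, by at least 1.02. The means were 7.37 ± 0.06 (SD, n = 2) and 5.84 ± 0.42 (SD, n = 3), so NR2F1 fell by 1.53 (95% interval of the change -2.14 to -0.92, standard error 0.31, adjusted p = 0.000217 from limma). The call did not hold in every setting: the adjusted p was 0.126 without a filter and 0.114 with the low-expression filter alone, 0.0554 without A02, and 0.976 with A03, which read 3.07, added to MCF10.AT1. Without A01 it was 0.0238. With A01 or A02 left out, MCF10.AT1 is a single array, and the spread then comes from the resistant line alone, here and for the genes below.

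NR2F1-AS1, a noncoding gene on the opposite strand at NR2F1, was looked up after the value of NR2F1 was known. It read 6.36 and 7.01 in MCF10.AT1 and 5.24, 5.63 and 5.50 in MCF10.AT1-R, with a change of -1.23 (adjusted p = 0.0108 from limma). Whether the probes separate the strands is not stated. The lines did not overlap for NR2F1-AS1 either, although on A03 it read 7.99, above every other array. NR2F2-AS1, the corresponding gene at NR2F2, read 2.13 and 2.15 against 2.72, 2.97 and 2.37, with 1 of these 5 values above the negative controls.

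NR2F2 (COUP-TFII), which binds the same DNA sites as NR2F1, read 7.20 and 7.08 in MCF10.AT1 and 7.68, 7.57 and 7.77 in MCF10.AT1-R. The resistant arrays were all higher than the parental ones. The change of 0.54 (95% interval -0.07 to 1.15) was larger than the SD of either line (0.09 and 0.10) but did not pass FDR 5% with the SD of 0.34 that limma used for every probe set (adjusted p = 0.694 from limma). When the variance followed the expression level (limma's trend option) it passed, with an adjusted p of 0.0297 from limma. A03 read 2.03, within the negative controls.

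The other members of these classes did not pass. NR2C2 (testicular receptor 4) read 6.76 and 6.90 in MCF10.AT1 and 6.64, 6.57 and 6.77 in MCF10.AT1-R, and the lines overlapped. The second probe set of NR2C2 read 3.41 and 3.83 against 3.46, 2.70 and 2.81, also with overlap. NR2C1 changed by 0.17, NR2F6 by -0.03 and NR2E3, a receptor known from photoreceptors, by -0.23. NR2E1, the tailless homologue, stayed within the negative controls on the 5 arrays.

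**Figure D2:**
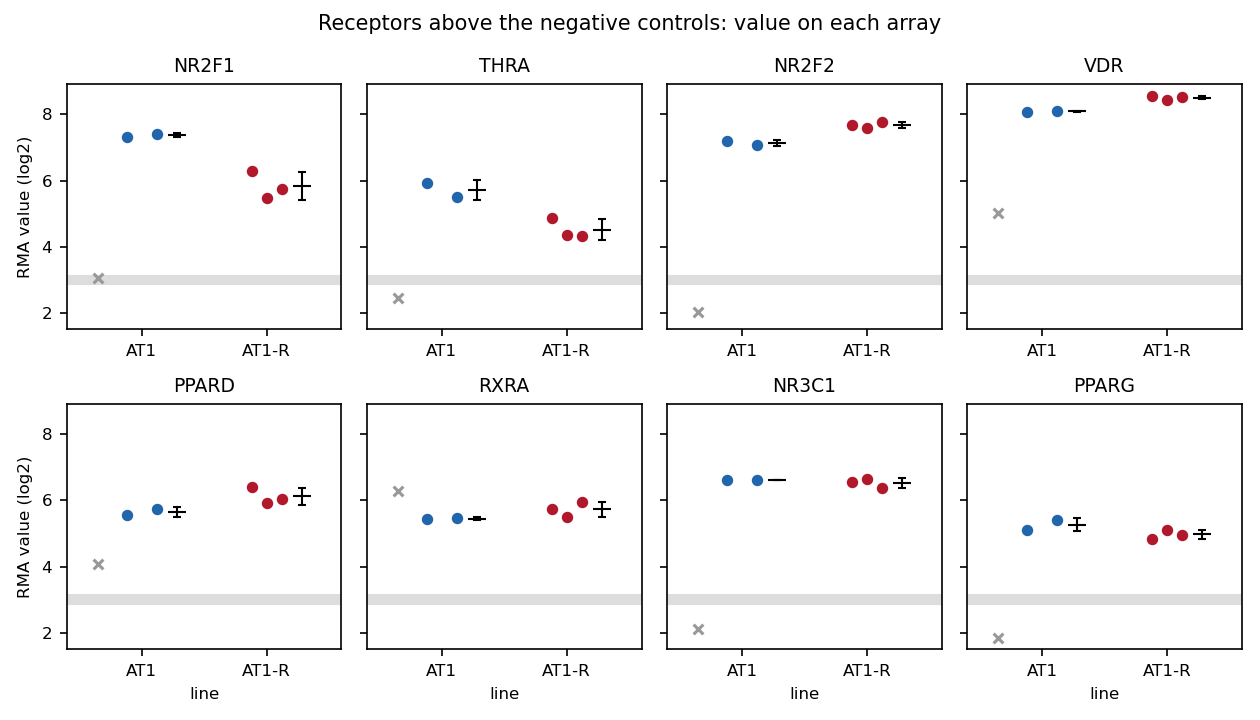
RMA value (log2, vertical axis) of 8 receptors above the negative controls in MCF10.AT1 (AT1, blue) and MCF10.AT1-R (AT1-R, red). Points are arrays, black bars the mean ± SD (n = 2 and n = 3), grey crosses A03 and the grey band the negative control limit; NR2F1 and THRA are lower on all 3 MCF10.AT1-R arrays, NR2F2, VDR, PPARD and RXRA higher on all 3, and NR3C1 and PPARG overlap.

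The thyroid hormone receptors bind thyroid hormone and pair with retinoid X receptors. THRA (probe set TC1700007777.hg.1) read 5.92 and 5.50 in MCF10.AT1 and 4.88, 4.36 and 4.33 in MCF10.AT1-R. Every MCF10.AT1-R array was below both MCF10.AT1 arrays. The means were 5.71 ± 0.30 (SD, n = 2) and 4.52 ± 0.31 (SD, n = 3), so THRA fell by 1.19 (95% interval of the change -1.80 to -0.57, adjusted p = 0.0169 from limma). Without any 1 array the change of THRA lay between -1.40 and -0.97. Its adjusted p was 0.565 without A01, 0.101 without A02, 0.0597 without B03 and 0.108 without B04, and it was 0.0112 without B02. It was 0.256 without a filter, 0.197 with the low-expression filter alone and 0.968 with A03 (2.45) added back, all from limma.

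The 3′ end of THRA overlaps that of NR1D1, the circadian repressor REV-ERB alpha, which is read from the opposite strand. NR1D1 read between 3.68 and 4.06 on the 5 arrays with a change of -0.09, and the lines overlapped. THRB, the second thyroid hormone receptor, read 4.52 and 3.59 in MCF10.AT1 and 4.13, 3.98 and 3.73 in MCF10.AT1-R, with a change of -0.11 (95% interval -0.72 to 0.50). Its 2 MCF10.AT1 arrays lay further apart than the lines did.

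VDR read 8.07 and 8.09 in MCF10.AT1 and 8.54, 8.43 and 8.53 in MCF10.AT1-R. The arrays did not overlap, and the replicates of VDR lay close together (SD 0.01 and 0.06). The change of 0.42 (95% interval -0.19 to 1.03, a 1.34-fold difference) had an adjusted p of 0.803 from limma with the common SD and of 0.0386 with the trend option. Of 4 vitamin D receptor targets, CD14, a coreceptor for bacterial lipopolysaccharide, was the only one that passed, and it fell, from 4.88 and 4.95 to 3.89, 3.55 and 3.91, a change of -1.12 (adjusted p = 0.0298 from limma). That call was lost when any 1 array was left out (adjusted p from 0.0522 to 0.454 from limma), without a filter (0.157) and with the low-expression filter alone (0.115). CYP24A1, which degrades the active hormone and is its most responsive target in many tissues, lay within the negative controls on all 5 arrays.

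Retinoic acid receptors (RARA, RARB and RARG) act as pairs with retinoid X receptors (RXRA, RXRB and RXRG), which are partners of many other receptors too. RARB and RXRG were within the negative controls on the 5 arrays, and the other 4 lay above them. RXRA read 5.43 and 5.48 in MCF10.AT1 and 5.75, 5.50 and 5.95 in MCF10.AT1-R, with a change of 0.28 (95% interval -0.34 to 0.89). The MCF10.AT1-R arrays of RXRA were all higher, with a gap of 0.015 between B03 and A02. On its second probe set RXRA read 5.23 and 5.34 against 5.80, 5.44 and 5.57. RXRB read 7.02 and 6.82 in MCF10.AT1 and 6.57, 6.83 and 6.69 in MCF10.AT1-R, and the lines overlapped. RARA changed by -0.16 and RARG by 0.02, and neither passed. Among 7 retinoic acid receptor targets, CRABP2, which carries retinoic acid to the nucleus, rose from 4.44 and 3.56 to 6.15, 5.95 and 6.10. This change of 2.07 (95% interval 1.46 to 2.68, adjusted p = 1.98e-08 from limma) had an adjusted p of 0.0364 without a filter, 0.0436 with the low-expression filter alone and 0.189 with A03 added back, all from limma. The remaining 6 did not pass. DHRS3, which reduces retinaldehyde, changed by -0.76 (adjusted p = 0.373 from limma, and 0.00221 with the trend option).

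Among the sensors of fatty acids, sterols and bile acids, 5 of 6 lay above the negative controls on the 5 arrays and none passed FDR 5%. PPARD, which responds to fatty acids, read 5.55 and 5.76 in MCF10.AT1 and 6.40, 5.94 and 6.03 in MCF10.AT1-R. The arrays of PPARD did not overlap, and its change was 0.47 (95% interval -0.14 to 1.08, adjusted p = 0.769 from limma and 0.429 with the trend option). PPARG, the receptor best known from fat cells, read 5.12 and 5.40 against 4.84, 5.12 and 4.96, with overlap. PPARA changed by 0.03. The liver X receptors, which sense oxysterols, changed by 0.14 (NR1H3) and -0.04 (NR1H2), with 95% intervals of -0.47 to 0.75 and -0.47 to 0.40. NR1H4, the bile acid receptor FXR, was within the negative controls on all 5 arrays.

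Known targets of these sensors were read as well. Of 7 PPAR targets, PDK4 and FABP4 fell and the others did not pass. PDK4, a kinase that holds back glucose oxidation, read 4.15 and 3.97 in MCF10.AT1 and 1.87, 1.83 and 2.09 in MCF10.AT1-R. The MCF10.AT1-R values of PDK4 were all within the negative controls, so with a floor at each array's control limit the fall was at least 1.13 (adjusted p of the fitted change 5.47e-09 from limma). FABP4, a fatty acid carrier, read 5.33 and 5.68 against 3.91, 3.52 and 3.30, a change of -1.93 (adjusted p = 3.28e-07 from limma). Without a filter the adjusted p was 0.00606 for PDK4 and 0.0286 for FABP4, and with A03 added back it was 0.777 for each, from limma. Of the 3 adipocyte markers, ADIPOQ and LEP were within the negative controls on the 5 arrays, and PLIN1 read 4.53 and 2.67 against 2.51, 1.82 and 3.31. Of 6 liver X receptor targets none passed, and 3 of them, including ABCA1, a cholesterol exporter, were within the negative controls. LPCAT3, which remodels phospholipids, read 7.86 and 7.83 against 7.50, 7.45 and 7.41, and SREBF1, which drives lipid synthesis, read 7.38 and 7.57 against 7.04, 7.27 and 7.33. Both were lower on every MCF10.AT1-R array without passing, with changes of -0.39 and -0.27. Of all gene symbols above the negative controls on the 5 arrays, 16.1% were lower in this way. None of the 4 FXR targets passed.

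Of the 5 steroid receptors, 1 lay above the negative controls on all 5 arrays. NR3C1, the glucocorticoid receptor, which binds cortisol (hydrocortisone), read 6.61 and 6.62 in MCF10.AT1 and 6.54, 6.65 and 6.37 in MCF10.AT1-R. The lines overlapped, with a change of -0.09 (95% interval -0.52 to 0.34, from limma without a filter, since its SD was among the lowest 25%). ESR1, oestrogen receptor alpha, read 2.85 and 3.49 against 3.39, 2.25 and 2.59, above the negative controls on A02 and B02 and not on the rest. PGR read 0.87 and 0.83 in MCF10.AT1 and 0.96, 0.98 and 0.79 in MCF10.AT1-R, within the controls throughout, as were ESR2 and NR3C2. No fold is given for these. Of 6 oestrogen receptor targets none passed.

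The 7 glucocorticoid receptor targets were all above the negative controls on the 5 arrays and all had a lower mean in MCF10.AT1-R, and 1 of them, ZBTB16, passed FDR 5%. ZBTB16, a transcriptional repressor strongly induced by glucocorticoids, read 5.02 and 4.87 in MCF10.AT1 and 3.68, 3.76 and 3.46 in MCF10.AT1-R. ZBTB16 fell by 1.31 (adjusted p = 0.00436 from limma), with an adjusted p of 0.219 without A01, 0.109 without A02, 0.0740 without a filter and 0.0604 with the low-expression filter alone. FKBP5, a chaperone that dampens the receptor's own signal, read 8.82 and 8.82 against 7.87, 7.77 and 7.87. The FKBP5 arrays were far apart relative to their spread (SD 0.00151 and 0.05), and the change of -0.98 had an adjusted p of 0.101 from limma with the common SD and of 1.45e-11 with the trend option. The median change of the 7 was -0.66, beside 0.0050 over all gene symbols. TSC22D3, DUSP1 and SGK1 also lay lower on every MCF10.AT1-R array, with changes of -0.75, -0.66 and -0.65 that did not pass, and PER1 and KLF9 overlapped. Thus 5 of the 7 did not overlap, beside 16.1% of all gene symbols above the negative controls on the 5 arrays that were lower in this way. The list was chosen with earlier results of these data known, so this share is no test of it. Members of the list, among them PER1 and DUSP1, also respond to other signals. On A03 the 7 targets summed to 21.8, against 36.9 and 38.2 on A01 and A02 and 32.4 to 33.5 on the MCF10.AT1-R arrays.

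**Figure D3:**
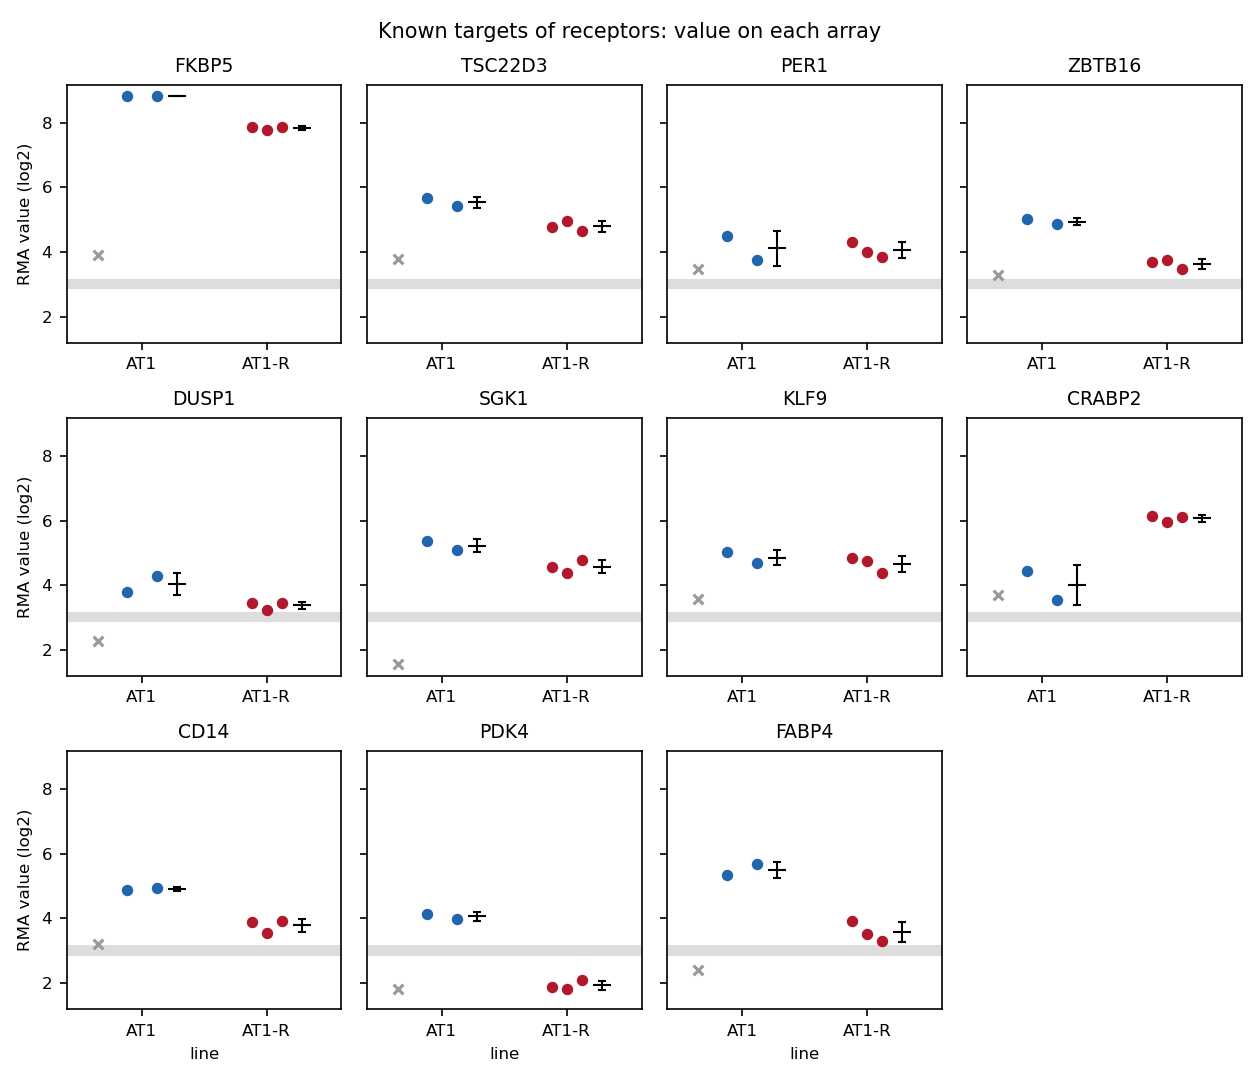
RMA value (log2, vertical axis) of the 7 glucocorticoid receptor targets (FKBP5 to KLF9) and of the targets of other receptors past FDR 5% (CRABP2, CD14, PDK4 and FABP4) in MCF10.AT1 (AT1, blue) and MCF10.AT1-R (AT1-R, red). Points are arrays, black bars the mean ± SD (n = 2 and n = 3), grey crosses A03 and the grey band the negative control limit; 5 of the 7 glucocorticoid receptor targets are lower on all 3 MCF10.AT1-R arrays and CRABP2 is higher.

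In the remaining classes no receptor passed. The oestrogen-related receptors are orphans that act on energy metabolism. ESRRA was above the negative controls on the 5 arrays and changed by 0.06, ESRRB changed by 0.04 around the control limit, and ESRRG, with 1 of 5 values above it, read 2.47 and 2.39 against 2.61, 3.07 and 2.89. Of the circadian receptors, NR1D1, NR1D2 and RORB were above the negative controls, with changes of -0.09, -0.03 and -0.06, and RORA was within them. Of the 5 clock genes controlled by these receptors, CLOCK, BMAL1 (listed as ARNTL) and CRY1 were higher on every MCF10.AT1-R array, NFIL3 was lower and NPAS2 overlapped. The first 4 changed by 0.48, 0.40, 0.48 and -0.72, none past FDR 5%. Their gaps between the lines were 0.25, 0.15, 0.054 and 0.094. Of all gene symbols above the negative controls on the 5 arrays, 16.9% were higher in this way and 16.1% lower.

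The xenobiotic sensors NR1I2 (PXR) and NR1I3 (CAR) and the hepatocyte nuclear factors HNF4A and HNF4G are known from liver and gut. None of these 4 lay above the negative controls on all 5 arrays, and all 4 PXR and CAR targets, CYP3A4 among them, were within the controls on every array. NR4A1, whose class is induced within minutes of a stimulus, read 3.87 and 3.99 against 3.86, 3.80 and 4.21, and NR4A2 and NR4A3 were within the controls. Of 5 other immediate-early genes, 4 had a lower mean in MCF10.AT1-R and none of those passed. FOS, FOSB, EGR1 and IER2 changed by -0.15, -0.06, -0.30 and -0.31, and FOS was not tested. FOS, EGR1 and IER2 lay lower on every MCF10.AT1-R array, beside 16.1% of all gene symbols above the controls on the 5 arrays. The remaining gene, ATF3, a stress-induced factor, rose from 2.33 and 2.75 to 3.99, 3.64 and 3.97. The MCF10.AT1 values of ATF3 were within the controls, so its rise was at least 0.78 (adjusted p of the fitted change 0.00338 from limma, 0.358 without A01, 0.118 without a filter and 0.0966 with the low-expression filter alone). NR5A1, which governs steroid synthesis in the adrenal gland and gonads, was above the controls on 4 of the 5 arrays and read 3.57 and 3.42 against 2.71, 3.69 and 3.14. NR5A2, NR6A1, NR0B1 and NR0B2 were within them.

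**Figure D4:**
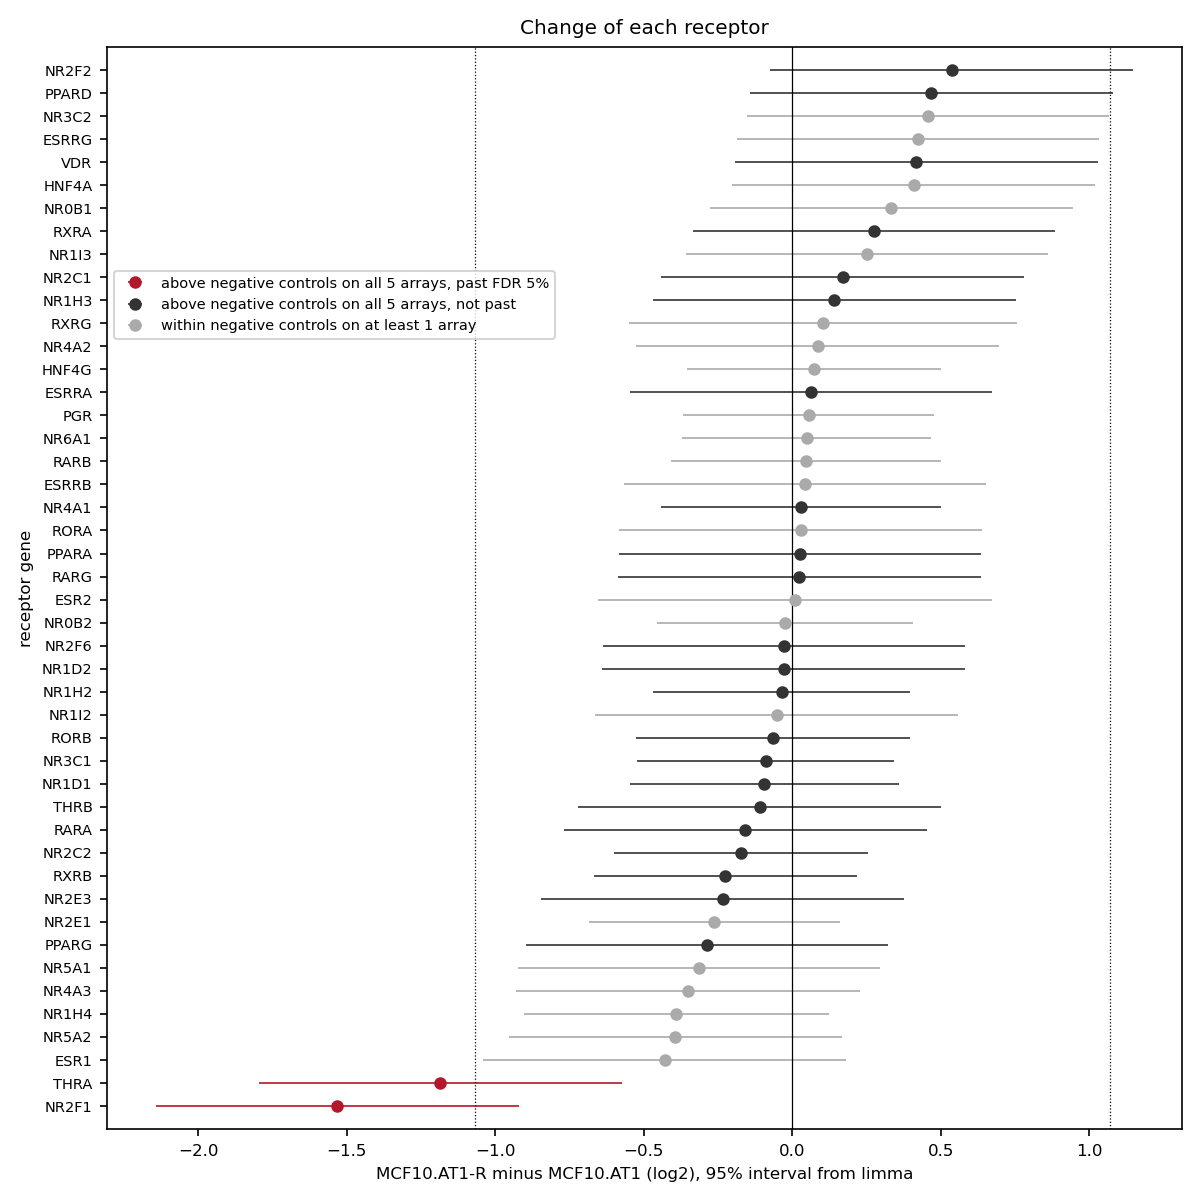
Change between the lines (MCF10.AT1-R minus MCF10.AT1, log2, horizontal axis) of each of the 46 receptors, in order of size (vertical axis), with its 95% interval from limma. Red marks the 2 receptors past FDR 5%, black those above the negative controls on all 5 arrays that did not pass and grey those within the controls on at least 1 array; dotted lines show 1.07, the smallest change of any probe set past FDR 5%, and the intervals of the 18 receptors that were not tested come from the fit without a filter.

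Counted over the family, 24 of the 46 receptors were above the negative controls on all 5 arrays, 16 were on none and 6 were on some. Over all gene symbols the share on all 5 arrays was 29.0%, but these symbols include noncoding genes, so the shares are not like for like. Of the 24, 4 were higher on every MCF10.AT1-R array than on both MCF10.AT1 arrays (NR2F2, VDR, PPARD and RXRA) and 2 were lower (NR2F1 and THRA), and 18 overlapped. The share of all gene symbols above the controls that were higher in this way was 16.9%, and that lower was 16.1%. Among the rest, ESRRG was higher and NR2E1 lower. The median change over the 46 receptors was 0.016, beside 0.0050 over all gene symbols, and 24 had a higher and 22 a lower mean. Over the 24 receptors above the controls it was -0.032, beside -0.010 over all gene symbols above them. Of these 24, 17 changed by less than 0.25 in either direction. The residual SD was below the common SD of 0.34 for 34 of the 46.

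With the trend option 4 receptors passed FDR 5%, namely NR2F1 and THRA, which fell, and NR2F2 and VDR, which rose, beside 2.68% of all probe sets tested. Without a filter none passed. Precision is limited by the few arrays, and the study calls the arrays of a line biological replicates without saying whether they came from separate cultures. On A03, 20 of the 24 receptors above the controls read lower than on each of the 5 other arrays and 2 (RXRA and NR1H3) read higher than on each, so changes with A03 included follow that array.

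Coregulators are the proteins through which receptors act. Of 16 coregulators 12 were tested and none passed. Above the negative controls on the 5 arrays were 13 of the 16. Changes over the 16 ran from -0.47 to 0.34, with a median of 0.05. Of the 74 genes of the 12 lists of coregulators, targets and immediate-early genes, 16 had been removed by the filter and could not pass. Among the 58 tested, 6 passed FDR 5%. Of these, 2 were higher (CRABP2 and ATF3) and 4 lower (ZBTB16, CD14, PDK4 and FABP4), beside 0.758% and 0.447% of all probe sets tested. The lists were chosen with earlier results of these data known, so these shares are no test of the lists. Of the 3 thyroid hormone receptor targets, THRSP, DIO1 and HR, only THRSP was tested, and it did not pass. The changes ranged from 0.06 to 0.49. THRSP, with the change of 0.49, lay above the negative controls on 1 of the 5 arrays, and DIO1 was within them on all 5. HR, a corepressor that was above the controls on the 5 arrays, changed by 0.06.

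**Figure D5:**
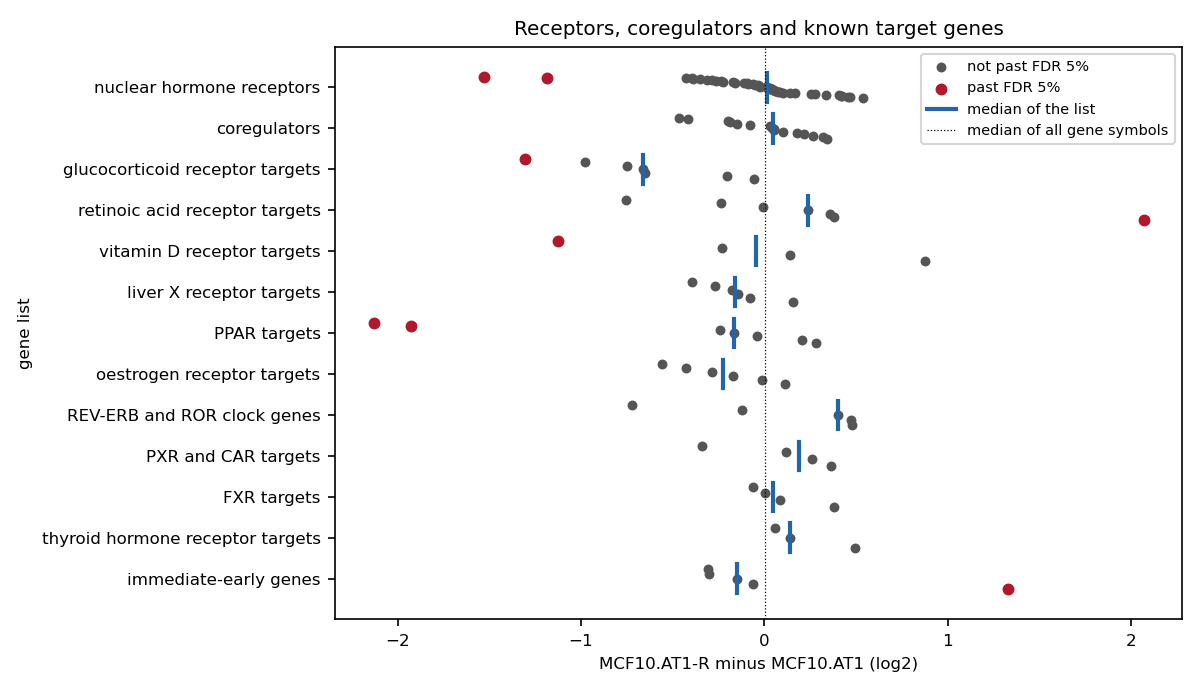
Change between the lines (MCF10.AT1-R minus MCF10.AT1, log2, horizontal axis) of every gene in the receptor family and in 12 lists of coregulators, known targets and immediate-early genes (vertical axis). Each point is a gene, red where it passed FDR 5%; blue bars are list medians and the dotted line the median of all gene symbols, and the glucocorticoid receptor targets lie to the left with a median of -0.66.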

How the data were processed

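Total RNA of MCF10.AT1 and MCF10.AT1-R was read on Clariom D arrays. The authors normalized the signals by RMA (per the labels and methods) and deposited log2 values for 6 arrays; the genome build is not given in the sources used here. Array names give the line and no replicate number. The 135750 transcript probe sets were filtered on a mean over the 5 arrays above the median of all (1.88) and an SD above the lowest 25% (0.18), limits chosen here. The 51457 left were compared in R 4.3.3 with limma 3.58.1 (lmFit, then eBayes), adjusted by Benjamini-Hochberg at FDR 5%. Receptors, related genes and markers that the filter removed could not pass, and they were read from the unfiltered fit. The filter made limma use 1 common SD (0.34). Fits were tested on simulated data, with each probe set's estimated SD taken as its true SD. There the fit with 1 common SD made more false calls than the nominal 5%, and the low-expression filter with the trend option made none. Each SD was estimated from 5 arrays, so the share of false calls in the real data is not known. Values were given per array for receptors past FDR 5%, for those whose arrays do not overlap and lie above the controls, for the 6 with the highest mean, and for ESR1, PGR and NR3C1. From the lists of related genes, those past FDR 5% were named; other genes whose array values are given, receptors or not, were chosen after their values were seen. The members and lists were chosen with earlier results of these data known. Alternatives changed the variance model, filters, arrays, scaling, probe set choice, background limit and threshold. RefSeq windows were read for 41 of the 46 receptors, and protein sequences were not used here.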

Additional observations from a re-analysis of the deposited data

Results flagged for a closer look

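On A03, the array that entered no comparison, 2 receptors that lay within the negative controls on all 5 other arrays read above that array's control limit of 3.15. NR2E1 read 3.47 there, against 2.11 to 2.51 elsewhere. NR0B2 read 3.34, against 2.53 to 2.77 elsewhere. Both values rest on 1 array with no replicate.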

How the results depend on the processing

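No paired analysis was possible because the array names carry no replicate number. The changes of NR2F1 and THRA were negative under every alternative run, but most alternatives could not have turned their sign. Filters, variance models, probe set choice and the floor left both changes as they were. Leaving out 1 array could not turn them, since all MCF10.AT1-R values were below both MCF10.AT1 values. Median centring and quantile normalization could have, and gave -1.54 and -1.56 for NR2F1 and -1.19 and -1.20 for THRA. With A03 added back both changes were near 0 (-0.10 each). The number of receptors past FDR 5% (2) was 0 without a filter, 0 with the low-expression filter alone, 0 with A03 added back, 1 at FDR 1%, and 4 with the trend option or with that option and the low-expression filter; leaving out 1 array gave 0 to 2. For all probe sets (620) the counts were 177, 182, 26, 386, 1377 and 1086 in the same order, and 271 (without A02) to 595 without 1 array. For the related genes (6) they were 3 without a filter and 3 with the low-expression filter alone (ZBTB16, ATF3 and CD14 no longer passed), 0 with A03, and 3 (without A01) to 5 without 1 array. The median change of the receptors (0.016) was 0.16 with A03, -0.15 with values under the control limit raised to it, since the limits themselves differ between the lines, -0.032 over the 24 receptors above the controls and -0.059 to 0.0015 without 1 array. Receptors whose arrays do not overlap numbered 8, and 5 with A03. Receptors above the controls numbered 24, and 14 with the 99th percentile as limit. With A03 the changes turned to 1.03 for NR2C2, 1.41 for NR3C1, -0.0049 for RXRA, 0.24 for RXRB and 0.66 for FKBP5, none past FDR 5%, and with the floor that of PGR turned to -0.15.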
